A study of Mus musculus with 44 samples.

Results

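The genes that make, sense and break down prostaglandins were followed in cells labelled as mouse bone marrow-derived macrophages (BMDMs) under 22 conditions. The set comprised 10 genes, chosen by symbol from the 24940 genes listed in each of 4 count tables: Pla2g4a, Ptgs1, Ptgs2, Ptges, Ptges2, Ptges3, Tbxas1, Ptger2, Ptger4 and Hpgd. The rule used symbols alone, although earlier results of these data were known when it was set. All 10 were listed and passed the filter on low counts in every table. The study asked how the nuclear receptor corepressor NCoR, the deacetylase HDAC3, the coactivator PGC1β and the kinase TBK1 bear on the response of macrophages to KLA, that is Kdo2 lipid A, which activates the lipopolysaccharide receptor TLR4. RNA was sequenced from 44 libraries, 2 per group. The first table held 24 libraries from NCoR flox/flox mice (WT) and NCoR flox/flox, LysMCre mice (NKO). Each genotype received vehicle (Veh), KLA, PolyIC (a synthetic double-stranded RNA that activates TLR3), IFNb (interferon beta) or IL4 for 6 h, or RANKL (a cytokine that drives osteoclast formation) for 12 h. The columns of the 4 RANKL libraries name the cells as osteoclasts, whereas their sample labels name BMDMs. The second held 6 libraries of wild-type cells given Veh, KLA or KLA with RGFP966, an HDAC3 inhibitor. The third held 8 libraries of Pgc1b flox/flox and Pgc1b flox/flox, LysMCre cells given Veh or KLA. The fourth held 6 libraries of wild-type cells given DMSO and Veh, DMSO and KLA, or a TBK1 inhibitor (TBK1i) and KLA. The mice were adults on a C57BL/6 background, and LysMCre is active in the myeloid lineage, so that controls and deleted cells both carried the floxed alleles and differed in Cre as well as in the deletion. No label says whether the 2 libraries of a group came from separate animals, so the p-values below measure the spread between these libraries, which may be technical.

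Prostaglandins are lipid signals made from arachidonic acid. Cytosolic phospholipase A2 (Pla2g4a) frees arachidonic acid from membranes, and the cyclooxygenases COX-1 (Ptgs1) and COX-2 (Ptgs2) convert it to prostaglandin H2. COX-1 is present in many resting cells, whereas COX-2 is best known as an enzyme that inflammatory signals switch on. Terminal enzymes then set the product: the prostaglandin E synthases (Ptges, Ptges2, Ptges3) make prostaglandin E2, and thromboxane A synthase (Tbxas1) makes thromboxane A2. Prostaglandin E2 acts through receptors that include EP2 (Ptger2) and EP4 (Ptger4), both of which raise cyclic AMP, and 15-hydroxyprostaglandin dehydrogenase (Hpgd) inactivates it. Macrophages are a major source of prostaglandin E2 and thromboxane in inflamed tissue.

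Reads assigned to genes ranged from 8323493 to 16783155 per library. Levels are given as CPM, the reads of a gene scaled to library size after TMM normalisation. The floor used for a gene at 0 was 3 counts. By library size alone, without TMM, 3 counts corresponded to 0.179 to 0.360 CPM. On the TMM scale of the levels the values differ. There, 3 counts were 0.141 CPM in Veh replicate 1 of the RGFP966 table and on average 0.314 in NKO_PolyIC. In WT_KLA replicate 1, 2 counts were already 0.328 CPM. Ncor1, the targeted gene, was 166 ± 4.85 CPM (SD, n = 2) in WT_Veh with a log2 fold change of -1.54 ± 0.06 (SE) in NKO_Veh, and 214 ± 2.18 in WT_KLA against 62.3 ± 3.77 in NKO_KLA. Ppargc1b, which encodes PGC1β, was 7.29 ± 0.723 CPM in Pgc1b flox cells with KLA and 9.50 ± 1.08 in the libraries labelled Pgc1b flox Cre, so the counts, which cover all exons, do not show the deletion. The study examined PGC1β protein in BMDMs of both genotypes by immunoblot, which these counts do not address. All 8 macrophage markers examined exceeded 1 CPM in every library. The RANKL libraries stood apart: the summed level of 6 neutrophil markers was 637 and 662 CPM in WT_RANKL against 1.85 and 3.99 in WT_Veh, that of 4 platelet markers 239.5 and 266 against 0.684 and 0.825, and that of 6 osteoclast markers 157 and 159 against 865 and 1053. Fibroblast and stroma markers, 5 in number, differed between other groups too. They summed to 91.4 and 101 CPM in WT_Veh against 16.2 and 22.4 in WT_KLA. In the other control vehicle groups they summed to 0.514 and 0.516 (Veh), 1.22 and 1.94 (Pgc1b_flox_Veh) and 53.3 and 54.7 (DMSO_Veh). In those 3 tables they were higher with KLA. Their part in the values below was not tested. The NKO_KLA libraries carry a date stamp 1401 days before that of WT_KLA, and they and the 8 libraries of the Pgc1b table were the 10 of 44 with Y-linked transcripts. The column names of NKO_KLA also carry other initials than those of WT_KLA, and the labels do not say what these stand for. Genotype, date stamp, sex and any difference behind those initials cannot be told apart for NKO_KLA against WT_KLA within that table. The WT_Veh pair differed most of all 22 pairs (chi-square per degree of freedom 5.87, lowest 1.54), and its replicates are named below where 1 of them decides a value.

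The 250 bases before the start of each gene were read from RefSeq (GRCm38.p6, the mm10 assembly), and all 10 genes were matched. They are shown for the pair of COX genes and for the partners of COX-2 whose transcripts rose most with KLA, 5′ to 3′ on the strand of the gene. Capitals mark matches to the C/EBP motif TTNNGNAA on either strand, the only one of 8 searched motifs found in these 4 windows. The Ptgs2 window lies at chr1:150099781-150100030 on the plus strand, the Ptges window at chr2:30903298-30903547 on the minus strand, the Pla2g4a window at chr1:149961291-149961540 on the minus strand and the Ptgs1 window at chr2:36230176-36230425 on the plus strand.
Ptgs2: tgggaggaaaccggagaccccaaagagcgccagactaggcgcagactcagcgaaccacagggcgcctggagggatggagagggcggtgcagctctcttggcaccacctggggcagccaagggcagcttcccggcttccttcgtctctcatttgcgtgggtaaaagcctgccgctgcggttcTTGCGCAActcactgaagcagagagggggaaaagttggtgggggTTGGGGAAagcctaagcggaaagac
Ptges: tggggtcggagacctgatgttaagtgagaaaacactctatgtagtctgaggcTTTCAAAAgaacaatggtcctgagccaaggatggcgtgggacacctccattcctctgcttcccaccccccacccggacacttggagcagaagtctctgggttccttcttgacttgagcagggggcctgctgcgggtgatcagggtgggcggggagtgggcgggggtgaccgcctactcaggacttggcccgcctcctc
Pla2g4a: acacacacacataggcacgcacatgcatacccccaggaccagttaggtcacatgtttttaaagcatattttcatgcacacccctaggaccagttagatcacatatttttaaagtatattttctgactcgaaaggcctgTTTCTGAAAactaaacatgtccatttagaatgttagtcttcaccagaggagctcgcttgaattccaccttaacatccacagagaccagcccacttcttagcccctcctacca
Ptgs1: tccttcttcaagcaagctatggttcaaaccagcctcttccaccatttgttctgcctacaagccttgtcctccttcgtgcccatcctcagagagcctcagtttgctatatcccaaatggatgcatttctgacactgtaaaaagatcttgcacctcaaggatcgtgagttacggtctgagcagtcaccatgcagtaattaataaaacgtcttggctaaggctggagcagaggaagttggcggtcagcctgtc

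The Ptgs2 window held 2 matches to the C/EBP motif, the first on both strands, at bases 69 to 62 and 25 to 18 before the start. Ptges held 1 at 198 to 191, Pla2g4a had 2 overlapping matches on opposite strands between bases 112 and 104, and Ptgs1 had none. Such matches are common: 36.9% of 32851 promoter windows held at least 1. Of the other motifs, TATAAA (in 12.4% of windows) and the AP-1 motif TGANTCA (6.75%) were matched in Tbxas1 alone, the E-box CACGTG (6.02%) in Ptges2 alone, and the NF-kB motif (7.25%) in Ptges3 alone. TGACGTCA (1.55%), its core TGACG (17.8%) and the interferon response element core GAAANNGAA (7.13%) were not found in any of the 10 windows. The Ptgs2 window was rich in G and C (61.6%, 13 CpG) beside Ptgs1 (48.0%, 5 CpG), and the median over all windows was 52.4%. A match is a letter pattern in this window and says nothing of binding. Ptgs2 (chr1:150100031-150108234, plus strand) and Pla2g4a (chr1:149829619-149961290, minus strand) are neighbours transcribed away from each other. Their starts lie 138.7 kb apart, and the noncoding gene Ptgs2os, which overlaps the Ptgs2 window, is the only gene listed between them. Ptgs1 (chr2:36230426-36252271), Ptges (chr2:30889471-30903297) and Ptges2 (chr2:32395890-32402740) share chromosome 2. The others lie on chromosomes 6 (Tbxas1), 8 (Hpgd), 10 (Ptges3), 14 (Ptger2) and 15 (Ptger4).

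In resting WT macrophages Tbxas1 was the most abundant transcript of the set per kb, and Ptgs2 the least. On the scale of CPM per kb of transcript (mean ± SD, n = 2), Tbxas1 stood at 72.0 ± 2.94, followed by Ptges3 at 16.2 ± 0.113 and Ptger4 at 15.2 ± 6.29. These neighbours were not separated, since the Ptger4 replicates, at 10.7 and 19.6, lay on either side of those of Ptges3. Next came Ptgs1 (7.96 ± 1.33) and Ptges2 (6.39 ± 0.773), whose replicates, at 7.02 and 8.90 and at 6.94 and 5.85, nearly touched. Ptger2 (3.95 ± 0.389), Hpgd (3.61 ± 0.297) and Pla2g4a (2.95 ± 0.742) followed, and the replicates of each overlapped those of the next. At the bottom were Ptges (1.17 ± 0.475) and Ptgs2 (0.370 ± 0.304), whose replicates were apart. After KLA the order turned over. Ptgs2 led at 1178 ± 15.6 CPM per kb, followed by Ptges (117 ± 1.04) and Pla2g4a (105 ± 0.0968), while Tbxas1 fell to 24.2 ± 0.00197 and Hpgd was last at 0.339 ± 0.209.

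**Figure D1:**
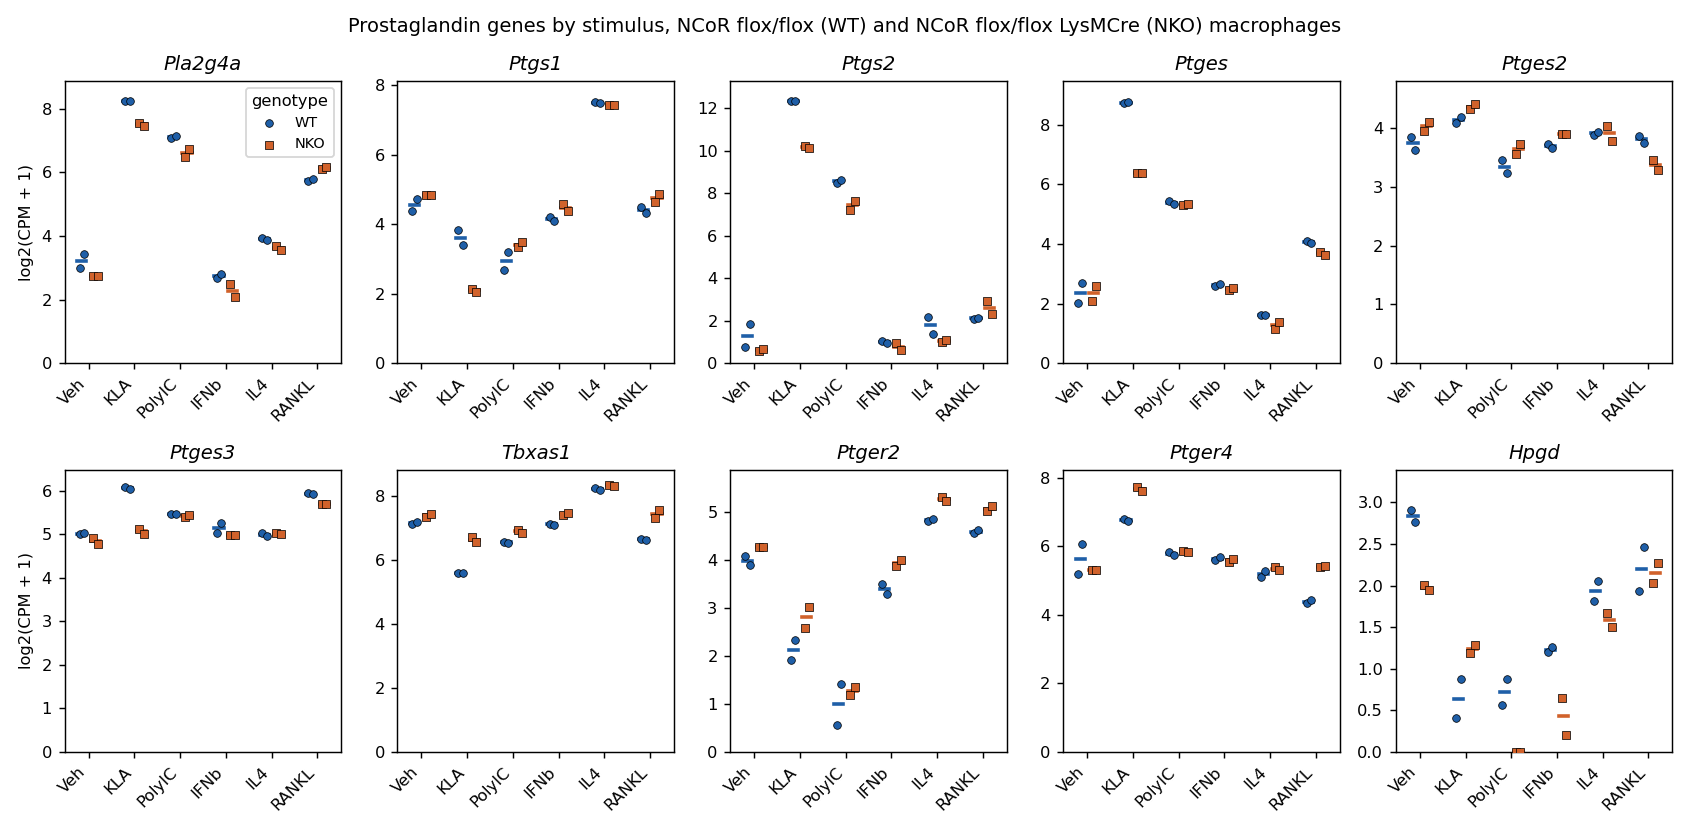
Level of each gene as log2(CPM + 1) (vertical axis) in the 24 libraries of the NCoR table by stimulus (horizontal axis), with WT libraries as blue circles, NKO libraries as orange squares and bars at the mean of 2. Ptgs2, Ptges and Pla2g4a were highest with KLA in both genotypes, Ptgs1 and Tbxas1 were highest with IL4, and Hpgd was highest in vehicle among the WT groups.

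With KLA, the genes for the release of arachidonate (Pla2g4a), for COX-2 (Ptgs2) and for the E synthases Ptges and Ptges3 rose, as did the receptor gene Ptger4, while Ptgs1, Tbxas1, Ptger2 and Hpgd fell. In bulk RNA, fewer cells of a type and less RNA per cell cannot be told apart. The WT_KLA libraries carry a date stamp 115 days before that of WT_Veh, so that treatment and date cannot be told apart within this table. Among the NCoR libraries 5 members rose and 4 fell, against 57.8% of all 13407 tested genes called in either direction. A call here is an adjusted p below 0.05 from the quasi-likelihood test of edgeR, adjusted over all tested genes by the method of Benjamini and Hochberg, and a change of more than 1.5-fold. Since KLA changed most of the transcriptome, the number of members called is not itself a result, and the sizes carry the description. Ptgs2 went from 0.688 and 2.60 CPM in WT_Veh to 5190.3 and 5289 in WT_KLA. The log2 fold change was 11.63 ± 0.25 (SE; adjusted p = 1.29e-14). The vehicle level rested on 10 and 38 reads, and the log2 fold change was 10.97 without WT_Veh replicate 1 and 12.87 without replicate 2.

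Ptges, the inducible prostaglandin E synthase that works with COX-2, measured 3.03 and 5.47 CPM in WT_Veh and 425 and 430.0 in WT_KLA, a log2 fold change of 6.65 ± 0.11 (edgeR adjusted p = 2.01e-52). Pla2g4a rose from 6.88 and 9.85 to 299 and 298 CPM, a log2 fold change of 5.16 ± 0.09. For all 3 genes the KLA libraries stood far above every vehicle library. The other E synthases moved by less. Ptges3, which also serves as the Hsp90 co-chaperone p23, went from 31.3 and 31.6 to 67.0 and 64.7 CPM (1.07 ± 0.09 on the log2 scale), and Ptges2 from 13.5 and 11.4 to 16.0 and 17.3 (0.43 ± 0.15, under the fold threshold). Ptges3 has a processed pseudogene on chromosome 6, and how reads shared with it were assigned is not known. Ptges and Tbxas1 each overlap a noncoding transcript, and reads of such partners could be told apart only if strand was used in counting.

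The receptors for prostaglandin E2 moved in opposite directions. Ptger4 was 35.7 and 65.3 CPM in WT_Veh and 110.2 and 106 in WT_KLA (1.10 ± 0.18, edgeR adjusted p = 0.000110). The WT_Veh replicates of Ptger4 differed by more than any other pair of that gene, and with the fit restricted to these 2 groups the adjusted p was 0.115. Ptger2 dropped from 15.9 and 13.8 to 2.78 and 4.00 CPM (-2.13 ± 0.22). Tbxas1 fell from 137 and 145 to 47.5 and 47.5 CPM (-1.57 ± 0.08), and Ptgs1 from 20.0 and 25.4 to 13.3 and 9.50 (-0.99 ± 0.15). Hpgd, the enzyme that ends the signal, fell to 2 and 5 reads from 95 and 85, that is, 0.328 and 0.833 against 6.53 and 5.82 CPM. From the summed reads it was 10.7-fold lower, with a 95% interval of 5.08 to 26.9 (exact, counting error only). Without WT_KLA replicate 2 the fitted log2 fold change went from -3.39 to -4.20.

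The same comparison was made in 3 further sets of control cells, each with its own vehicle and KLA libraries. Members called numbered 10 in the RGFP966 table (against 60.0% of all tested genes), 8 with Pgc1b flox cells (against 48.5%) and 10 with DMSO (against 58.9%). Ptgs2 rose by 11.82 ± 0.10, 11.21 ± 0.11 and 10.80 ± 0.08 on the log2 scale, Ptges by 7.13 ± 0.11, 6.63 ± 0.29 and 7.31 ± 0.08, and Pla2g4a by 4.66 ± 0.08, 3.00 ± 0.10 and 4.88 ± 0.09. The smaller Pla2g4a value in the Pgc1b table went with a higher vehicle level, 27.8 and 25.2 CPM against 9.61 and 9.35 in Veh and 7.18 and 6.26 in DMSO_Veh. Ptger4 rose by 1.95 ± 0.08, 1.55 ± 0.10 and 1.91 ± 0.07, and was called in each. Hpgd fell in every table, to between 1 and 12 reads per KLA library from between 85 and 391 per control vehicle library. In DMSO_KLA it was 40.0-fold lower than in DMSO_Veh from the summed reads (95% exact interval 18.2 to 109.7), and the fitted value moved between -4.52 and -6.81 with DMSO_KLA replicate 1 or 2 left out. In the Pgc1b table it was -3.40 ± 0.39 (-4.12 without Pgc1b_flox_KLA replicate 2). Ptgs1 was lower after KLA throughout, and its level of 13.3 and 9.50 CPM in WT_KLA was above the 3.73 and 6.18 of KLA, the 5.00 and 5.65 of Pgc1b_flox_KLA and the 4.97 and 5.55 of DMSO_KLA. Ptger2 fell by -2.70 ± 0.29 in the RGFP966 table (-2.09 without KLA replicate 1, -4.05 without replicate 2) and -1.93 ± 0.21 in the TBK1i table. Tbxas1 and Ptges2 were not called in the Pgc1b table (-0.54 ± 0.08, -0.59 and called without Pgc1b_flox_KLA replicate 1, and 0.07 ± 0.20). The Ptger2 call in the Pgc1b table (-0.77 ± 0.28) was lost without Pgc1b_flox_KLA replicate 2 (-0.54) or Pgc1b_flox_Veh replicate 2 (-0.51), and in DESeq2 (-0.75, adjusted p = 0.0653). The Ptges2 call in the TBK1i table (0.62 ± 0.16) was lost without DMSO_Veh replicate 1 (0.51) and with only the compared groups (0.55).

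**Figure D2:**
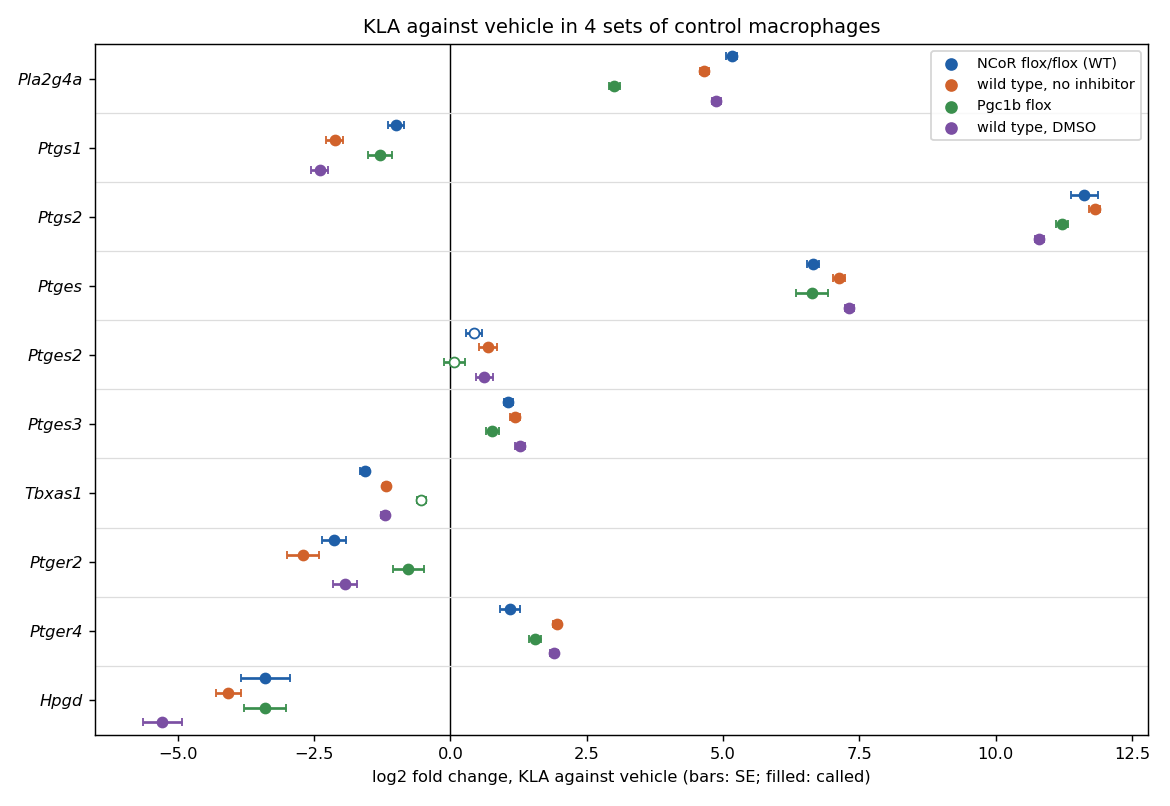
Log2 fold change of KLA against vehicle (horizontal axis, bars show the SE) for the 10 genes in control macrophages of the 4 tables (colours), with filled points for called changes. Ptgs2, Ptges, Pla2g4a and Ptger4 lie to the right of 0 and Hpgd, Ptger2, Ptgs1 and Tbxas1 to the left in all 4 tables.

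PolyIC raised Ptgs2, Pla2g4a and Ptges to levels under those with KLA. In WT cells 3 members rose and 4 fell (against 47.2% of all tested genes). Ptgs2 reached 362 and 396 CPM (7.84 ± 0.26 against WT_Veh on the log2 scale, edgeR adjusted p = 2.59e-12), Pla2g4a 135 and 141 (4.04 ± 0.10) and Ptges 42.0 and 39.1 (3.25 ± 0.14). None of these libraries reached the KLA level of its gene. As with KLA, the Ptgs2 value depended on the vehicle replicate left out (7.18 without WT_Veh replicate 1, 9.08 without replicate 2). Ptger2 fell to 4 and 14 reads, or 0.476 and 1.68 CPM (-3.77 ± 0.26, -3.13 without WT_PolyIC replicate 1 and -4.93 without replicate 2). Ptgs1 dropped to 5.48 and 8.17 CPM (-1.73 ± 0.15), and Hpgd to 4 and 7 reads (-3.21 ± 0.39). Tbxas1, at 94.2 and 92.0 CPM, passed the fold threshold narrowly (-0.60 ± 0.07, -0.56 with the size factors of DESeq2, where it did not). Ptger4, at 55.4 and 52.6 CPM, differed by 0.10 ± 0.19 and was called only without WT_Veh replicate 2 (0.60).

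With interferon beta only Hpgd and Ptger2 passed the threshold. In WT cells 2 members fell and none rose (against 6.47% of all tested genes). Hpgd measured 1.30 and 1.40 CPM against 6.53 and 5.82 in WT_Veh (-2.19 ± 0.29, edgeR adjusted p = 8.89e-09), and Ptger2 10.2 and 8.74 against 15.9 and 13.8 (-0.64 ± 0.14). The 2 Hpgd groups did not overlap. The Ptger2 call was lost without WT_IFNb replicate 2 or WT_Veh replicate 1 (-0.54 in either case). Ptgs2 had 17 and 13 reads, or 1.10 and 0.955 CPM, within the range of WT_Veh. Pla2g4a differed by -0.55 ± 0.16 and was called without WT_Veh replicate 1 (-0.78) or WT_IFNb replicate 2 (-0.62). Ptgs1 (-0.43 ± 0.11) was called without WT_Veh replicate 1 (-0.59), and Ptges (0.29 ± 0.19) without WT_Veh replicate 2 (0.78).

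IL4 raised the COX-1 gene and the thromboxane synthase gene, and the gene for COX-2 was not called. In WT cells 4 members rose and 2 fell (against 13.1% of all tested genes). Ptgs1 went from 20.0 and 25.4 CPM to 182 and 177, a 7.89-fold rise (2.98 ± 0.08, edgeR adjusted p = 1.17e-35). In NKO_IL4 it was 171 and 172 CPM, and vehicle libraries of the 4 control groups ranged from 12.4 to 29.9. Tbxas1 rose from 137 and 145 to 304 and 292 CPM (1.08 ± 0.06), and Ptger2 from 15.9 and 13.8 to 27.1 and 27.9 (0.89 ± 0.12). Pla2g4a measured 14.2 and 13.5 CPM (0.73 ± 0.13, 0.49 and under the fold threshold without WT_Veh replicate 1). Ptges fell to 2.04 and 2.08 CPM (-1.04 ± 0.24), a call lost without WT_Veh replicate 2 (-0.55), and Hpgd to 2.52 and 3.15 (-1.12 ± 0.26). Ptgs2 was 45 and 21 reads, or 3.54 and 1.61 CPM, a range that met that of WT_Veh. Ptger4, at 33.7 and 37.7 CPM, differed by -0.50 ± 0.19 and was called lower without WT_Veh replicate 1 (-0.87).

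RANKL-treated WT cells carried more Pla2g4a, Ptges and Ptges3 than vehicle cells, with 4 members higher and 2 lower (against 43.8% of all tested genes). These libraries were taken at 12 h against 6 h for vehicle and carry a date stamp 536 days earlier, and their columns name the cells as osteoclasts, so treatment, time, date and culture cannot be told apart, and the part of the neutrophil and platelet markers in these values was not tested. Pla2g4a was 52.1 and 53.9 CPM against 6.88 and 9.85 (2.66 ± 0.10, edgeR adjusted p = 1.24e-30), Ptges 16.3 and 15.6 against 3.03 and 5.47 (1.90 ± 0.15) and Ptges3 60.4 and 59.4 against 31.3 and 31.6 (0.93 ± 0.08). The ranges were apart in each case. Ptger2 was higher by 0.63 ± 0.12, a call lost without WT_Veh replicate 2 (0.54). Ptger4, at 19.2 and 20.6 CPM, was below both vehicle libraries (-1.35 ± 0.21, adjusted p = 0.0992 with only these groups in the fit, in edgeR). The Hpgd call (-0.75 ± 0.24) was lost without WT_RANKL replicate 1 (-0.44) and in DESeq2. Ptgs2 measured 3.20 and 3.42 CPM and was called only in DESeq2 (1.02) or without WT_Veh replicate 2 (2.25). Ptgs1, a gene that platelets also express, was 21.5 and 19.2 CPM, within the range of WT_Veh or just under it.

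The balance of the cyclooxygenase transcripts followed the stimulus. On the scale of CPM per kb, Ptgs2 divided by Ptgs1 was 0.0220 and 0.0657 in the WT_Veh libraries, 0.0125 and 0.00585 in WT_IL4, 0.0401 and 0.0381 in WT_IFNb and 0.0955 and 0.114 in WT_RANKL, so that Ptgs1 was the more abundant in each. It was 42.4 and 31.1 in WT_PolyIC and 251 and 357 in WT_KLA, where Ptgs2 was. The ratio stood at 224 and 227 in NKO_KLA and 10.5 and 12.5 in NKO_PolyIC. It ranged from 705 to 1134 in the KLA-treated control libraries of the other 3 tables and fell to 338 and 340.5 with RGFP966, 451 and 431 in Pgc1b_flox_Cre_KLA and 260.1 and 289 with the TBK1 inhibitor. In those 3 arms Ptgs2 was called lower, and Ptgs1 differed by 0.49 ± 0.20, 0.52 ± 0.24 and 0.45 ± 0.21 on the log2 scale, under the fold threshold in each. Without KLA replicate 2 the Ptgs1 value with RGFP966 was 0.91 and was called.

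**Figure D3:**
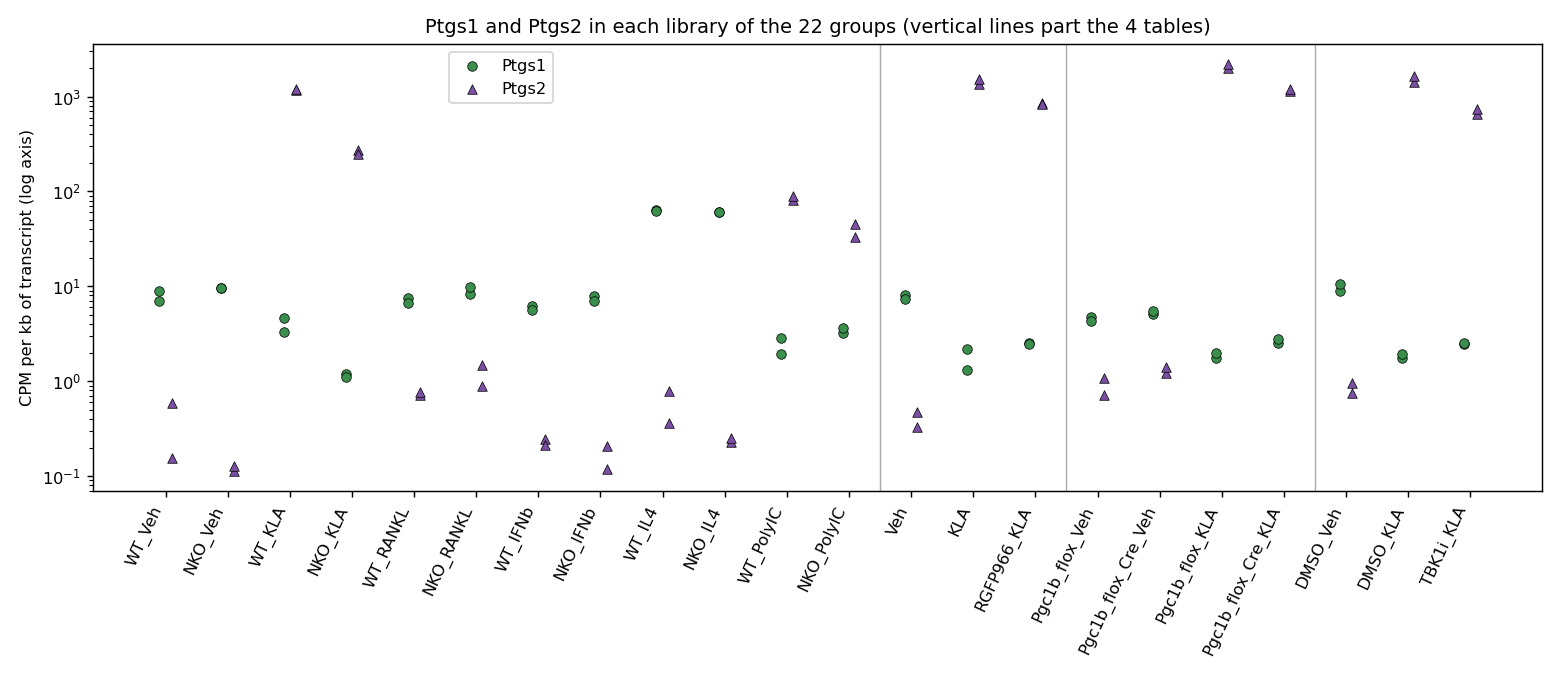
Ptgs1 (green circles) and Ptgs2 (purple triangles) in CPM per kb of transcript on a log axis (vertical) in each library of the 22 groups (horizontal axis). Ptgs2 lay above Ptgs1 in every library given KLA or PolyIC and below it in every other library.

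Between the genotypes, most calls in this gene set came in KLA-treated cells, where calls over all genes were also most common. In vehicle, 1 member was called (against 6.21% of all tested genes). Hpgd was 3.01 and 2.85 CPM in NKO_Veh against 6.53 and 5.82 in WT_Veh (-1.07 ± 0.25, edgeR adjusted p = 0.000645). Ptger4 was 38.6 and 38.3 CPM in NKO_Veh, between the WT_Veh replicates at 35.7 and 65.3. It was called lower only without WT_Veh replicate 1 (-0.76), and 3 members were called in that fit. Pla2g4a, at 5.67 and 5.65 CPM, differed by -0.56 ± 0.16, under the fold threshold, and was called without WT_Veh replicate 1 (-0.80). Ptgs2 held 7 and 10 reads in NKO_Veh and 10 and 38 in WT_Veh (-1.59 ± 0.82), a difference called lower in DESeq2 and not in edgeR.

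With KLA, 8 members differed between the genotypes, 3 higher and 5 lower in NKO (against 40.0% of all tested genes). The study itself singled out Ptgs2 in these libraries, so its difference is a description and not independent evidence. Ptgs2 measured 1202 and 1110.1 CPM in NKO_KLA against 5190.3 and 5289 in WT_KLA, 4.53-fold lower (-2.18 ± 0.14). Ptges was 82.7 and 82.7 CPM against 425 and 430.0, 5.17-fold lower (-2.37 ± 0.07, edgeR adjusted p = 2.86e-36). Pla2g4a fell by less, from 299 and 298 to 187 and 174 CPM (-0.73 ± 0.06). Thus the 3 transcripts that KLA raised most were all lower in NKO_KLA than in WT_KLA, groups that also differ in date stamp and sex. For Pla2g4a this depended on the control. It was called lower against KLA of the RGFP966 table (-0.73), but not against Pgc1b_flox_KLA (-0.28) or DMSO_KLA (-0.20).

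Ptges3 was 33.7 and 31.4 CPM in NKO_KLA, near its vehicle level of 29.1 and 26.3, against 67.0 and 64.7 in WT_KLA (-1.01 ± 0.09). Ptgs1 was 3.44 and 3.14 CPM against 13.3 and 9.50 (-1.79 ± 0.22). The receptors and the thromboxane synthase were higher in NKO: Ptger4 at 211 and 195 CPM against 110.2 and 106 (0.91 ± 0.17, edgeR adjusted p = 0.000337), and Tbxas1 at 103 and 93.1 against 47.5 and 47.5 (1.05 ± 0.08). Ptger2 was 4.98 and 7.14 against 2.78 and 4.00 (0.83 ± 0.27), a call lost without NKO_KLA replicate 2 (0.56) or WT_KLA replicate 1 (0.59). Hpgd had 15 and 15 reads in NKO_KLA against 2 and 5, 2.34-fold higher from the summed reads (95% exact interval 1.01 to 6.32) and not called (edgeR adjusted p = 0.0808).

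Because date and sex set NKO_KLA apart, its libraries were also compared with the KLA-treated controls of the other tables in a joint fit of 10864 genes, which moves the difference in date and table but does not remove it. Against KLA of the RGFP966 table, Pgc1b_flox_KLA and DMSO_KLA in turn, Ptgs2 differed by -2.79, -3.06 and -2.63 on the log2 scale, Ptges by -1.76, -1.14 and -2.44, Ptges3 by -0.95, -0.81 and -0.77, and Ptgs1 by -0.92, -0.74 and -0.74. Those 4 were called lower against each control. The Ptgs1 differences were smaller than that from WT_KLA (-1.79). Ptger4 was higher by 0.57, 1.08 and 0.68 and passed the fold threshold in the last 2. Pla2g4a was called lower against KLA (-0.73) but not against Pgc1b_flox_KLA (-0.28) or DMSO_KLA (-0.20). Tbxas1 was called higher against DMSO_KLA alone (0.81), with 0.31 and 0.32 against the others. Ptger2 was called against KLA (1.96) and DMSO_KLA (0.73) and not against Pgc1b_flox_KLA (0.21). Ptges2 was called higher against KLA alone (0.60), and Hpgd higher against DMSO_KLA alone (1.88). Against Pgc1b_flox_KLA, whose libraries also carry Y-linked transcripts, 5 members were called.

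Whether the response to KLA itself differed between genotypes was tested with an interaction term, in which 6 members were called (against 36.9% of all tested genes). NKO_KLA differs from the other groups of this term in date stamp and in its Y-linked transcripts. Genotype, date stamp and sex therefore cannot be told apart in these values, and no other KLA control was used for them. The term is the log2 response of NKO minus that of WT. It was -2.37 ± 0.21 for Ptges (edgeR adjusted p = 1.00e-14) and -0.82 ± 0.12 for Ptges3, which KLA raised by less in NKO, and -2.07 ± 0.24 for Ptgs1, which it lowered by more. It was 1.30 ± 0.25 for Ptger4, which rose by more in NKO, and 0.80 ± 0.10 for Tbxas1 and 2.29 ± 0.64 for Hpgd, which fell by less (Hpgd 3.09 without WT_KLA replicate 2). Ptger2 (0.54 ± 0.30) was called without NKO_KLA replicate 1 (0.78). For Ptgs2 the term was -0.59 ± 0.95 (adjusted p = 0.649 in edgeR), with vehicle levels of 10 and 38 reads in WT and 7 and 10 in NKO behind it. The Pla2g4a term was -0.16 ± 0.17, and the differences behind it were -0.56 in vehicle and -0.73 in KLA.

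**Figure D4:**
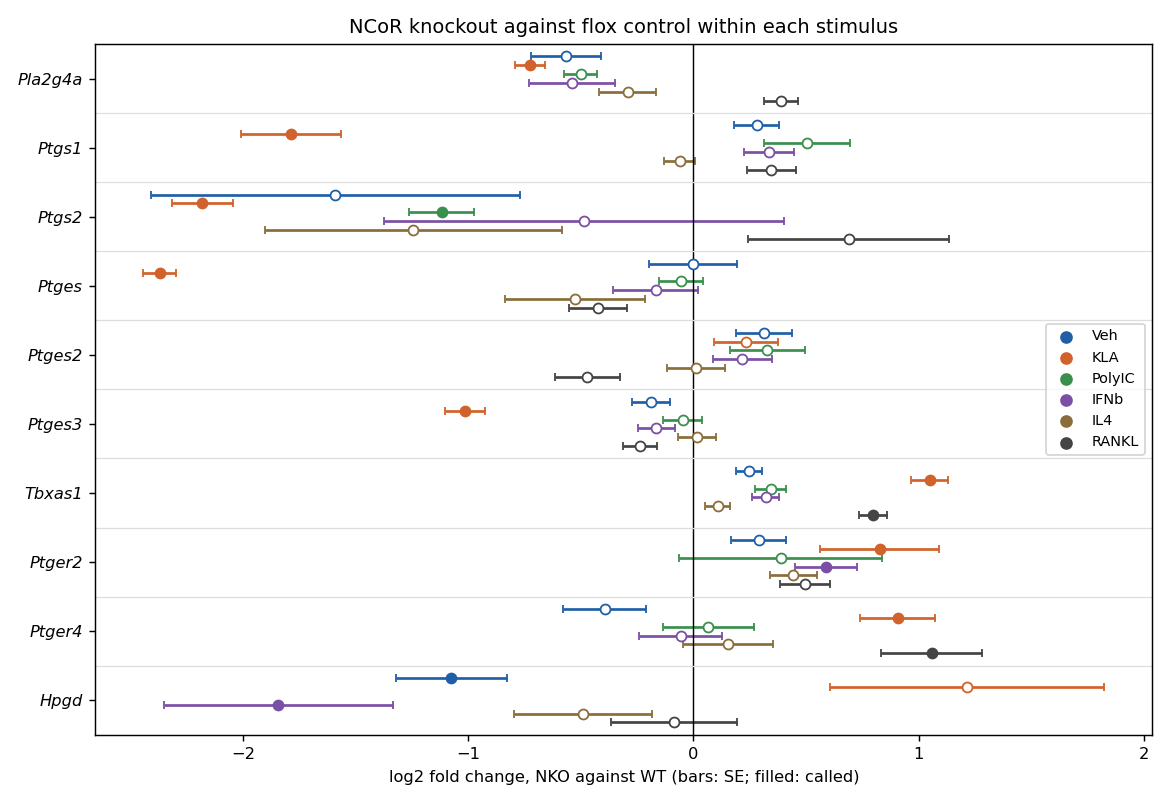
Log2 fold change of NKO against WT (horizontal axis, bars show the SE) for the 10 genes within each of the 6 stimuli (colours), with filled points for called changes. Ptges, Ptges3 and Ptgs1 were called lower with KLA and under no other stimulus, and Hpgd with PolyIC is left out because both NKO libraries had 0 reads.

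The other stimuli gave fewer calls. With PolyIC, 2 members were lower in NKO (against 5.93% of all tested genes). Ptgs2 was 149 and 201 CPM against 362 and 396 in WT_PolyIC (-1.12 ± 0.15, edgeR adjusted p = 8.22e-05). Ptges was 38.9 and 39.2 CPM against 42.0 and 39.1 (-0.06 ± 0.10). Hpgd had 0 reads in both NKO_PolyIC libraries and 4 and 7 in WT_PolyIC, at least 2.10-fold lower against a floor of 3 counts per library. With only these groups in the fit, Hpgd had no value and 1 member was called. Pla2g4a (-0.50 ± 0.07) was called lower without NKO_PolyIC replicate 2 (-0.63), and Ptgs1 (0.50 ± 0.19) higher without WT_PolyIC replicate 2 (0.82). With IFNb, 2 members were called (against 3.80% of all tested genes). Hpgd had 8 and 2 reads in NKO_IFNb against 20 and 19, 3.66-fold lower from the summed reads (95% exact interval 1.79 to 8.21, counting error only), and the call was lost without NKO_IFNb replicate 2. The fitted value was -1.84, and -3.06 or -1.24 without NKO_IFNb replicate 1 or 2. Ptger2 was 13.7 and 14.9 CPM against 10.2 and 8.74 (0.59 ± 0.14), lost without replicate 2 of NKO_IFNb (0.52) or of WT_IFNb (0.49). With IL4, edgeR called 0 members (against 4.24% of all tested genes), 2 had an unadjusted p below 0.05 and DESeq2 also called 0. Ptgs2 was 1.03 and 1.13 CPM against 3.54 and 1.61 and was called lower with only these groups in the fit (-1.25, edgeR adjusted p = 0.00629). Ptgs1 was 171 and 172 CPM in NKO_IL4 and 182 and 177 in WT_IL4, a difference of -0.06 ± 0.07. Pla2g4a with IFNb (-0.54 ± 0.19) was called without NKO_IFNb replicate 1 (-0.83).

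With RANKL, Ptger4 and Tbxas1 were called, both higher in NKO (against 13.2% of all tested genes). Ptger4 was 40.8 and 41.9 CPM against 19.2 and 20.6 (1.06 ± 0.22, edgeR adjusted p = 0.00224), and Tbxas1 158 and 188 against 100.3 and 98.3 (0.80 ± 0.06). Summed neutrophil markers were 935 and 1009.9 CPM in NKO_RANKL against 637 and 662 in WT_RANKL, and platelet markers 438 and 482 against 239.5 and 266. Their part in the Tbxas1 and Ptger4 values was not tested. Ptgs2, at 6.60 and 3.95 against 3.20 and 3.42 CPM, was called higher with only these groups in the fit (0.68, edgeR adjusted p = 0.0368). In the interaction tests, 4 members were called for RANKL (against 14.2% of all tested genes): Ptger4 (1.45 ± 0.29), Pla2g4a (0.95 ± 0.17), Hpgd (0.99 ± 0.37) and Ptges2 (-0.78 ± 0.19). Hpgd was lost in DESeq2 and without any of 5 of the 8 libraries, the value then being between 0.68 and 1.03. Calls gained in this interaction without 1 library were those of Ptgs2 (2.94 without WT_Veh replicate 1, and also in DESeq2 with all libraries, 2.28, adjusted p = 0.00588), Ptges (-0.91 without WT_Veh replicate 2, -0.68 without NKO_Veh replicate 1) and Tbxas1 (0.59, 0.60 and 0.67 without WT_Veh replicate 1, NKO_Veh replicate 2 or NKO_RANKL replicate 1). No member was called by edgeR in the interaction for PolyIC (against 3.24% of all tested genes), IFNb (0.604%) or IL4 (0.604%), where 1, 0 and 1 members had an unadjusted p below 0.05. Of the genes called for PolyIC, 65.9% had a positive term, and 55.1% did with the size factors of DESeq2. DESeq2 called 0 members in each and gave no adjusted p for 1, 5 and 3 members. Without WT_Veh replicate 1, Ptger4 was called in all 3 of these interactions (0.83, 0.71 and 0.92).

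RGFP966 lowered Ptgs2 and Ptger4 in KLA-treated wild-type cells and raised Ptger2, with 4 members called (against 25.4% of all tested genes). Ptgs2 was 3768 and 3704 CPM with the inhibitor and 6003 and 6793 without (-0.78 ± 0.06, edgeR adjusted p = 1.84e-21). Ptger4 was 52.3 and 56.7 against 117 and 102 CPM (log2 fold change -1.001, SE 0.08), whereas it was higher in NKO_KLA than in WT_KLA. Ptges was 219 and 232 against 204 and 245 CPM (0.01 ± 0.06). Ptger2 was 4.35 and 2.93 against 0.478 and 1.90 CPM (1.55 ± 0.35, 0.94 without KLA replicate 1 and 2.90 without KLA replicate 2). Hpgd had 1 and 4 reads against 12 and 12, 5.71-fold lower from the summed reads (95% exact interval 2.14 to 19.2). Its fitted value was -2.46, and -1.80 or -3.71 without RGFP966_KLA replicate 1 or 2. Pla2g4a was 168 and 178 against 229 and 249.8 CPM (-0.47 ± 0.06), under the fold threshold. Replicate 2 of RGFP966_KLA carries a date stamp 14 days after that of replicate 1.

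In the libraries labelled Pgc1b flox Cre, the KLA-treated cells had less Pla2g4a, Ptges and Ptgs2 and more Hpgd than the flox controls (4 members called, against 26.1% of all tested genes). Pla2g4a was 59.8 and 56.9 CPM against 195 and 229.9 (-1.86 ± 0.09, edgeR adjusted p = 1.47e-18). Ptgs2 was 5054 and 5399.9 against 8835 and 9716 CPM (-0.83 ± 0.06). Ptges was 89.1 and 82.3 against 177 and 176 CPM (-1.04 ± 0.18), a call lost in DESeq2 (adjusted p = 0.310). Hpgd went the other way, with 46 and 52 reads against 4 and 8 (2.77 ± 0.42, 3.51 without Pgc1b_flox_KLA replicate 2). In vehicle edgeR called 0 members (against 0.303% of all tested genes), 3 had an unadjusted p below 0.05, and DESeq2 called 0 with no adjusted p for 4. The Ptges reads of the vehicle Cre libraries were 7 and 36, and without replicate 2 it was called lower (-2.06). The interaction with KLA was called for 3 members (against 22.8% of all tested genes): Pla2g4a (-1.60 ± 0.14), Ptgs2 (-1.40 ± 0.18) and Hpgd (2.11 ± 0.50, 2.84 without Pgc1b_flox_KLA replicate 2). The Ptger2 difference in KLA (0.61 ± 0.29) was called without Pgc1b_flox_KLA replicate 1 (0.95). Its interaction term (0.80 ± 0.38) was called without that library (1.14) or Pgc1b_flox_Cre_Veh replicate 2 (1.16), and that of Ptges (-0.66 ± 0.62) without Pgc1b_flox_Cre_Veh replicate 1 (-1.48).

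The TBK1 inhibitor lowered 4 members in KLA-treated cells and raised none past the threshold (against 33.3% of all tested genes). Pla2g4a showed the largest difference, 35.9 and 39.7 CPM with the inhibitor against 195 and 201 in DMSO_KLA, 5.25-fold lower (-2.39 ± 0.07). It remained above the 7.18 and 6.26 CPM of DMSO_Veh. Ptger4 fell from 129 and 111 to 47.1 and 46.6 CPM (-1.36 ± 0.07). Ptgs2 was 2886 and 3253 against 6386 and 7232 CPM (-1.15 ± 0.04, edgeR adjusted p = 3.38e-27). Ptges was 266 and 300.5 against 414 and 439 CPM (-0.59 ± 0.04), close to the threshold and under it without DMSO_KLA replicate 2 (-0.55) or TBK1i_KLA replicate 1 (-0.50), in DESeq2 (-0.56) and with its size factors (-0.57). Hpgd had 8 and 8 reads with the inhibitor and 1 and 5 in DMSO_KLA, 2.50-fold higher from the summed reads (95% exact interval 0.931 to 7.81) and called only without DMSO_KLA replicate 2. Ptgs2 was thus called lower in each of the 4 perturbed arms of KLA-treated cells, Pla2g4a and Ptges in 3 of them, Ptges with the TBK1 inhibitor only at the threshold, and Ptger4 in 2, while Ptger4 was higher in the NCoR knockout. Of these calls, that of Pla2g4a in NKO_KLA was not made against Pgc1b_flox_KLA or DMSO_KLA. That of Ptges in Pgc1b flox Cre was lost in DESeq2 (adjusted p = 0.310). The study showed Ptgs2 as an example in each of these arms, so its recurrence is not independent evidence. The 4 arms use different controls, and differences between arms were not tested.

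**Figure D5:**
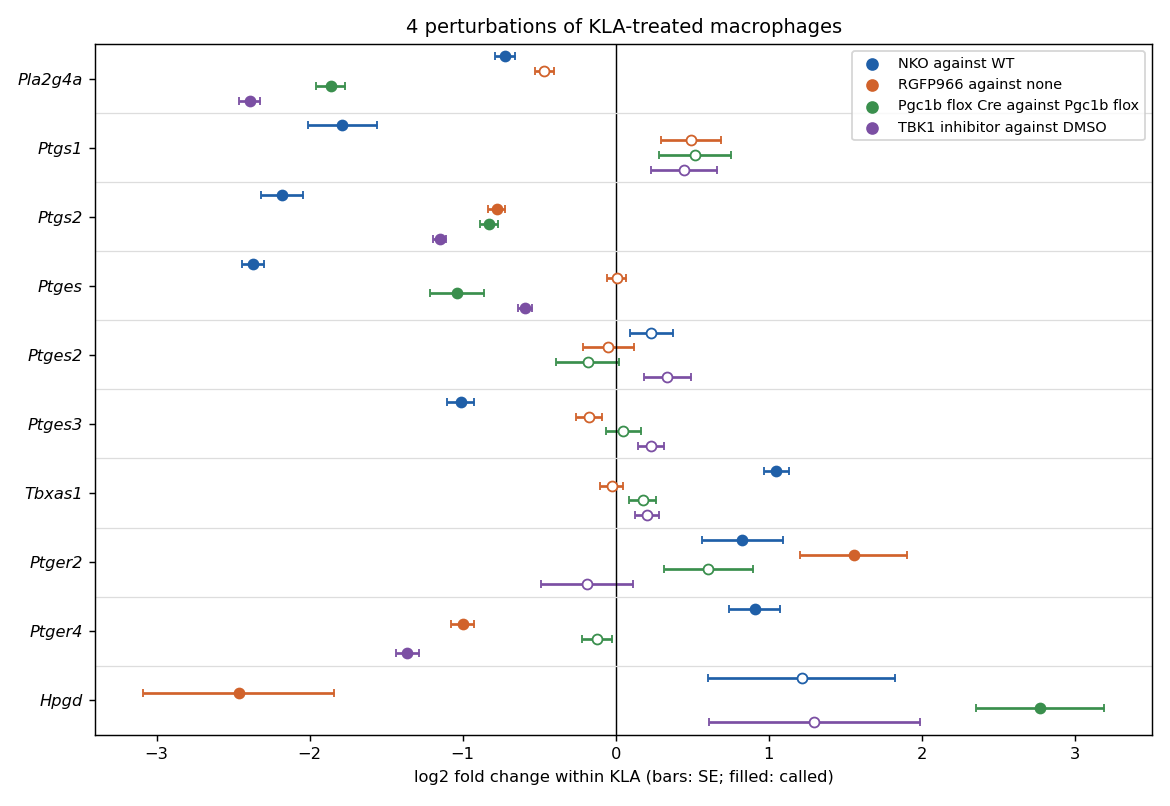
Log2 fold change within KLA-treated cells (horizontal axis, bars show the SE) for the 10 genes under NCoR knockout, RGFP966, Pgc1b flox Cre and the TBK1 inhibitor (colours), with filled points for called changes. Ptgs2 was lower in all 4, Ptges was lower in 3 and at 0 with RGFP966, and Ptger4 was higher in NKO and lower with either inhibitor.

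A wider list of 53 other eicosanoid genes listed in the tables gives the surroundings of the set. With KLA in WT cells, 42 passed the filter, 11 rose and 20 fell (31 of 42, against 57.8% of all genes), and their median log2 fold change was -0.87 (-0.71 with 3 genes that had a group at 0 set to their bound) against -0.14 over all tested genes. Hpgds, the prostaglandin D synthase of blood cells, fell to 134 ± 3.99 CPM (-1.01 ± 0.06), and Alox5ap, which leukotriene synthesis requires, from 192 ± 9.17 to 105 ± 3.14 (-0.87 ± 0.06). Ptgir, the prostacyclin receptor, rose (0.69 ± 0.17), as did Abcc4, a transporter that exports prostaglandins (1.34 ± 0.11). Ptgir was not called with KLA in the RGFP966 (0.05 ± 0.19) or TBK1i (0.42 ± 0.15) tables, nor Abcc4 in the Pgc1b table (0.20 ± 0.13). Mgll, which frees arachidonate from an endocannabinoid, fell (-2.83 ± 0.15). IL4 raised 8 and lowered 5 of the list (against 13.1% of all genes, median 0.14, with 1 gene at its bound 0.10, all genes -0.01), among them Ptgir (1.88 ± 0.13) and, downwards, Hpgds (-1.41 ± 0.06). In the RANKL libraries 18 were higher and 10 lower (28 of 42, against 43.8% of all genes, median 0.49, all genes 0.02), and the 5-lipoxygenase gene Alox5 was 7.46 ± 0.101 CPM against 0.0342 ± 0.0484. Neutrophils express Alox5, the neutrophil markers summed to 637 and 662 CPM in these libraries against 1.85 and 3.99 in WT_Veh, and their part in these values was not tested. Treatment, time, date and culture cannot be told apart here either.

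Between genotypes in KLA-treated cells, 11 genes of the wider list were higher and 8 lower in NKO (19 of 42, against 40.0% of all genes), with a median of 0.04 (-0.05 with 3 genes at their bound) against 0.07 over all genes. Alox5ap was 287 ± 1.60 CPM in NKO_KLA against 105 ± 3.14 (1.45 ± 0.06), and Hpgds 75.1 ± 6.23 against 134 ± 3.99 (-0.84 ± 0.07). Under vehicle, PolyIC, IFNb and IL4 the calls were fewer, 4, 5, 3 and 4 (against 6.21%, 5.93%, 3.80% and 4.24% of all genes), and Mgll was higher in NKO in each: 105 ± 2.08 CPM against 40.1 ± 1.51 in vehicle (1.39 ± 0.07). With KLA it was lower in NKO (-0.93 ± 0.25), and its interaction term was -2.32 ± 0.27. Mgll was also called higher in the Pgc1b flox Cre libraries, with vehicle (0.63 ± 0.14) and with KLA (0.93 ± 0.17). Within KLA, RGFP966 raised 11 and lowered 5 of 34 tested (against 25.4% of all genes), with Ptgir (2.23 ± 0.15) among the higher. The Pgc1b flox Cre libraries had 9 of 35 higher and 4 lower (against 26.1%), and the TBK1 inhibitor 12 of 32 higher and 6 lower (against 33.3%), with Ptgir again among the higher (1.17 ± 0.14). The medians of these last 3 were 0.49, 0.35 and 0.31, against 0.03, -0.000337 and 0.01 over all tested genes.

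Genes of like pattern were sought among all 13407 tested genes of the NCoR table by Pearson's r of group-mean log2(CPM + 1) over its 12 groups, given as a description, since the groups share a table, its depth and its scaling. The 5 most like Ptgs2 were 4930469K13Rik (0.994), Ptgs2os2 (0.992), Il12b (0.991), Tiparp (0.991) and Adora2a (0.991). Those most like Ptges were Tnfsf9 (0.984), F830208F22Rik (0.982), Psma3 (0.982), Lims1 (0.980) and Uba6 (0.980). Ptgs1 was most like Inpp5a (0.982), Mir6928 (0.970), Creb3l2 (0.965), Ankrd6 (0.961) and Gsto1 (0.958), and Ptger4 like Carhsp1 (0.962), Amz2 (0.953), Zfp821 (0.952), Asb6 (0.947) and Folr1 (0.945). Ptgs2os2, a noncoding transcript from beyond the end of Ptgs2, was 30.3 ± 5.82 CPM in WT_KLA, 14.6 ± 0.537 in NKO_KLA and 12.2 ± 2.54 in WT_PolyIC, with no read in WT_Veh. With r this high for many genes over 12 groups, the order among them carries little.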

How the data were processed

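RNA-seq reads of 44 libraries were aligned by the authors with STAR to mm10, and HOMER counted reads in exons, keeping the most abundant transcript per gene; the labels also name DESeq2, and versions are not given in the sources used here. The methods call the libraries strand-specific, while the count command in the file headers names no strand option. The deposited tables hold raw counts (8323493 to 16783155 per library). Each of 4 tables was fitted on its own in edgeR 4.0.16 (R 4.3.3) after filterByExpr, which left 13407, 12196, 12205 and 12332 genes in the NCoR, RGFP966, Pgc1b and TBK1i tables, with TMM scaling, 1 mean per group and the robust quasi-likelihood test with Benjamini-Hochberg adjustment over all tested genes. A call needed an adjusted p under 0.05 together with more than 1.5-fold change, as in the study. The SE of a log2 fold change was taken from the F statistic. Levels are CPM after TMM scaling, and per-kb levels divide by the transcript length in the tables. Intervals of read ratios are exact binomial and, like floors, cover counting error only.

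The genes named were the 10 members in every comparison, called genes of a wider eicosanoid list, the targeted genes, and for Ptgs2, Ptges, Ptgs1 and Ptger4 the 5 genes of most like pattern; Ptgs2os2 levels were added after its value was seen. Members, lists and motifs were chosen with earlier results of these data known. Promoter windows were 250 bases upstream of the RefSeq start (GRCm38.p6), searched on both strands for 8 motifs. Alternatives were the size factors of DESeq2, DESeq2 1.42.0, no filter, no fold threshold, only the compared groups, a replicate block, each replicate left out, and other KLA controls. Deviations of same-numbered replicates were hardly correlated between compared groups (-0.07 to 0.04), which does not settle whether the numbers mark pairs. The scripts were tested on simulated data.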

Additional observations from a re-analysis of the deposited data

Results flagged for a closer look

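In 13 cases the response to a stimulus differed between genotypes by an interaction test (edgeR's quasi-likelihood test, adjusted over all tested genes), given as the log2 response in the LysMCre cells minus that in the flox controls. Of all tested genes, 36.9% were called for KLA in NKO, 14.2% for RANKL in NKO and 22.8% for KLA in Pgc1b flox Cre. For KLA in NKO against WT the values were -2.07 for Ptgs1, -2.37 for Ptges, -0.82 for Ptges3, 1.30 for Ptger4, 2.29 for Hpgd and 0.80 for Tbxas1. Genotype, date stamp and sex of the NKO_KLA libraries cannot be told apart in these.

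For RANKL in NKO against WT they were -0.78 for Ptges2, 1.45 for Ptger4, 0.95 for Pla2g4a and 0.99 for Hpgd, where treatment, time, date and culture cannot be told apart. These libraries also carried neutrophil and platelet markers, whose part was not tested, and the Hpgd call was lost in DESeq2 and without any of 5 of the 8 libraries. For KLA in the libraries labelled Pgc1b flox Cre, whose counts do not show the deletion, against Pgc1b flox they were -1.40 for Ptgs2, -1.60 for Pla2g4a and 2.11 for Hpgd.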

How the results depend on the processing

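Of 98 calls of members over 24 comparisons, 79 were ended by no alternative in which they had a value, and of 944 alternative values 903 kept direction and call, 41 kept direction but lost the call and 0 reversed. Among the 79 is Hpgd between genotypes in PolyIC, which had no value with only the compared groups. Of those 41, 22 came with 1 replicate left out. For 142 pairs of a member and a comparison that were not called, 30 were called under an alternative that kept the fold threshold, 23 of them only with 1 replicate left out. The replicate block (2 numbers per group, correlations of deviations between -0.07 and 0.04) gave the same number of members called in 24 of 24 comparisons, 98 calls in all, and changed no other call. The shift of all genes between TMM and the size factors of DESeq2 was at most 0.07 (log2). Scaling by library size alone was not among the alternatives, so the dependence of the values on it was not tested. Other counts of members called were within 1.5 times the reported count.

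With no fold threshold, the number of members called went from 2 to 4 for IFNb against vehicle, from 1 to 4 for NKO against WT in vehicle, from 2 to 4 in PolyIC, 2 to 5 in IFNb, 0 to 1 in IL4 and 2 to 8 in RANKL, and from 4 to 7 for the TBK1 inhibitor. In DESeq2, 2 were called between genotypes in vehicle. With only the compared groups, 1 was called between genotypes in each of PolyIC, IFNb and IL4. Against Pgc1b_flox_KLA as control, 5 of the 8 calls for NKO_KLA were made. With 1 replicate left out, the counts ranged from 1 to 3 between genotypes in vehicle, from 0 to 2 in IFNb, and from 0 to 1 in the interactions for PolyIC, IFNb and IL4 and for Pgc1b flox Cre against flox in vehicle. The cause was not tested.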
